A study of Mus musculus with 4 samples.

Results

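RNA of 10 genes for calcium entry and potassium channels was measured in T cells of the mouse spleen. The genes were chosen by symbol, as a list: the pore subunits Orai1 and Orai2, the calcium sensors Stim1 and Stim2, the IP3 receptors Itpr1, Itpr2 and Itpr3, the potassium channels Kcna3 and Kcnn4, and the cation channel Trpm7. All 10 were found among 55536 genes. The study sequenced total RNA of spleen T cells, which the labels describe by the antigen CD3, from B6CASTF1/J males aged 66 days. These mice are F1 hybrids with a C57BL/6 dam and a CAST/EiJ sire. There was 1 group, with no treatment named in its labels, of 4 biological replicates called libraries 1 to 4 by replicate number. Each library started from 300 ng of RNA, and synthetic spike-ins were added. The labels give all 4 the same donor identifier and do not say whether each is a separate animal, so SDs and p-values measure only the spread between these samples, which may be technical. The design has no second condition, so values were compared between related genes, between transcripts of a gene and between libraries.

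When the T cell receptor is engaged, phospholipase C makes the messenger IP3, which opens IP3 receptors in the endoplasmic reticulum and empties its calcium store. STIM proteins in that membrane sense the loss and open ORAI channels in the plasma membrane, the calcium release-activated current through which T cells sustain calcium signals that reach the transcription factor NFAT. Potassium leaving through the voltage-gated channel Kv1.3 and the calcium-activated channel KCa3.1 keeps the membrane negative and so maintains the driving force for calcium, whereas TRPM7, a channel fused to a kinase, carries magnesium and calcium and is needed for lymphocyte growth.

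The libraries held between 14584388 (library 4) and 17335895 (library 2) estimated counts. The labelled cell type was checked against marker lists. The summed TPM of 10 T cell markers was 2894 to 3007, where TPM is the abundance per transcript length, scaled to the same total over all RNA in each library. Library 4 had the most marker RNA of several other cell types. Its 10 B cell markers summed to 159.5 TPM against 14.63 to 19.94 in the other libraries, all 10 were highest there, and its 6 erythroid markers summed to 633.4 TPM against 15.28 to 62.46. Library 2 had the most of 6 neutrophil markers, with 29.74 TPM against 9.45 to 10.54. All 6 natural killer markers were highest in library 4, with a sum of 28.78 TPM against 20.93 to 22.65, beside 39.5% of 13118 genes tested. By edgeR's goodness-of-fit test for variation between libraries, 0 of 5 natural killer markers tested were called, beside 1.4% of these genes. Of the B cell and erythroid markers tested, 8 of 8 and 3 of 3 were called. The 6 markers each of monocytes and macrophages, platelets and dendritic cells summed to 22.23 to 25.52, 5.94 to 8.53 and 2.08 to 5.37 TPM, and 1 of these markers, Treml1 of platelets, was at 0 in all libraries. In bulk RNA, fewer cells of a type and less RNA per cell cannot be told apart.

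Among the pore subunits, Orai2 was much more abundant than Orai1. ORAI1 forms the main calcium entry pore of T cells, and ORAI2 joins it in mixed channels that carry less current. Orai1 lies on chromosome 5 between 123015074 and 123030456 (mm10, + strand) and had 27.71, 25.27, 26.46 and 28.08 TPM in libraries 1 to 4. Orai2 lies on the same chromosome between 136147459 and 136170713 (- strand) and had 85.31, 88.58, 89.52 and 93.62 TPM. The 4 values of each gene lay close together, and the ranges of the 2 genes did not overlap. The means were 26.9 ± 1.28 TPM for Orai1 and 89.3 ± 3.42 TPM for Orai2 (SD, n = 4), from 559 to 629 and from 4712 to 5543 counts per library. Of the 10141 protein-coding nuclear genes with a mean of at least 1 TPM, 5.28% were at or above Orai2 and 25.7% at or above Orai1. The log2 ratio of Orai1 to Orai2 was -1.62, -1.81, -1.76 and -1.74 in libraries 1 to 4, a mean of -1.73 ± 0.079 or 3.32-fold less Orai1. The two-sided exact permutation test, which flips the sign of whole libraries, gave p = 0.125, the smallest value possible with 4 libraries.

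By TPM, Orai1 was divided about equally between a coding and a noncoding transcript, whereas more of its counts went to the coding one. Orai1-202, which holds the whole open reading frame, took 50.5% ± 1.86 of the gene's TPM, and Orai1-203, annotated as a processed transcript without a coding sequence, took 49.5% ± 1.86 (SD, n = 4). As shares of counts these were 65.2% ± 1.69 and 34.8% ± 1.69. The second deposited quantification gave Orai1-203 49.7% ± 2.47 and divided the coding share between Orai1-202, with 38.8% ± 2.63, and Orai1-201, with 11.5% ± 2.52, which the first listed at 0. In Orai2 the transcripts with a whole open reading frame took 86.0% ± 1.90, with Orai2-201 at 70.3% ± 3.49, Orai2-202 at 15.7% ± 3.43 and the retained-intron transcript Orai2-204 at 8.90% ± 1.01. Counting only transcripts with a whole open reading frame, Orai1 had 14.3, 13.26, 12.93 and 13.73 TPM and Orai2 74.55, 77.45, 76.67 and 78.1 TPM. The log2 ratio then widened to -2.50 ± 0.083, or 5.66-fold.

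Of the calcium sensors, Stim1 exceeded Stim2. STIM1 answers large losses of stored calcium and STIM2 smaller ones, near resting levels. Stim1 lies on chromosome 7 between 102267806 and 102437319 (+ strand) and had 54.03, 54.24, 60.36 and 66.81 TPM, a mean of 58.9 ± 6.06 (SD, n = 4). Stim2 lies on chromosome 5 between 53998499 and 54121057 (+ strand) and had 19.55, 18.64, 19.12 and 25.05 TPM, a mean of 20.6 ± 3.00. Both genes had their highest TPM in library 4, the library with the most B cell and erythroid marker RNA, whose part in these values was not tested. The log2 ratio of Stim1 to Stim2 was 1.47, 1.54, 1.66 and 1.42, a mean of 1.52 ± 0.106 or 2.87-fold, with the same exact permutation p of 0.125. Over transcripts with a whole open reading frame it was 1.91 ± 0.109, or 3.75-fold.

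In the first quantification, the higher Stim1 TPM of library 4 lay in transcripts that keep an intron. Stim1 transcripts with a whole open reading frame had 30.68, 30.93, 31.62 and 30.86 TPM in libraries 1 to 4, which hardly differed. Its 5 retained-intron transcripts together had 23.35, 23.31, 28.73 and 35.96 TPM, so their share went from 43.2% and 43.0% in libraries 1 and 2 to 53.8% in library 4. In the second quantification these transcripts took less of the gene, 29.7% ± 2.82, and the retained-intron transcript Stim1-205, at 14.2% ± 1.22 in the first, was at 0 there, whereas the partial coding transcript Stim1-207 was at 0 in the first and at 11.2% ± 1.97 in the second. In the second quantification both the retained-intron transcripts, with 17.1, 17.6, 20.9 and 26.3 TPM, and Stim1-207, with 6.14, 7.23, 6.56 and 11.01 TPM, were highest in library 4. By counts scaled to the library with the TMM method (scaled CPM), library 4 did not stand apart for Stim1, with 168.4, 167.8, 177.7 and 177.9. As shares of counts, Stim1 retained-intron transcripts took 25.7% ± 4.00 and those with a whole open reading frame 74.3% ± 4.00 (SD, n = 4). Stim1-205, of 483 bases, had 47.3 to 54.4 counts per library. Retained-intron Stim1-204, of 494 bases and named after its values were seen, had 12.0, 17.8, 13.3 and 37.2 counts. Stim2 had 7.32, 8.38, 8.84 and 8.64 TPM in transcripts with a whole open reading frame, with library 4 inside the range of the others. Its retained-intron transcript Stim2-205 had 5.72, 4.14, 5.26 and 9.04 TPM, highest in library 4. Noncoding Stim2-202 took 20.7% ± 2.67 of the gene in the first and 35.3% ± 3.84 in the second quantification, and coding Stim2-201 39.5% ± 6.25 and 24.9% ± 5.80, so the makeup of Stim2 depended on the quantification. It depended on the scale as well, since Stim2-201 took 77.9% ± 4.00 of counts, Stim2-205 6.67% ± 2.07 and Stim2-202 3.91% ± 0.895, the last 2 from a mean of 53.4 and 31.4 counts per library.

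Both STIM genes have a splice form with a known change in the protein, and the inserted sequences are shown because they are what sets these forms apart. STIM2 with an extra exon of 24 bases (8 codons) is known to inhibit calcium entry. The exon lies at chr5:54110116-54110139 (mm10, + strand), exon 9 of 13 in Stim2-204 and absent from Stim2-201. The long form of STIM1, first described in muscle, extends an exon by 324 bases (108 codons) at chr7:102430952-102431275 (+ strand), within exon 11 of 12 of Stim1-202, whose first 60 extra bases are printed. Capitals mark the added bases and lower case the flanking exon sequence.
Stim2-204 extra exon: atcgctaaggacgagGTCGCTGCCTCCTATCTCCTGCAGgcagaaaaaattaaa
Stim1-202 extension: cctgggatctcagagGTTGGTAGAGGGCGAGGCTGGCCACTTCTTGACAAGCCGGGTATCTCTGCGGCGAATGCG

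The Stim1 form with this extension was measurable and the Stim2 form with this exon was near the limit. Stim1-202 took 14.4%, 12.5%, 11.4% and 11.5% of Stim1 TPM in libraries 1 to 4, a mean of 12.5% ± 1.42, against 40.4% ± 4.11 for Stim1-201, which lacks the extension (SD, n = 4). The second quantification gave 16.1% ± 2.80 and 33.3% ± 4.79. Stim2-204, named after its values were seen, took 2.23%, 0%, 1.47% and 1.42% of Stim2 TPM, and 5.25%, 5.87%, 4.82% and 8.60% in the second quantification. The 2 quantifications differed about Stim2-204 by more than the spread between libraries. Stim1-201 and Stim1-202 also differ in annotated first base (102267806 and 102267854), as do Stim2-201 and Stim2-204 (53998499 and 53998565). Their shares therefore do not measure the extension or the exon alone.

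All 3 IP3 receptors were expressed at comparable levels. Itpr1 lies on chromosome 6 between 108213096 and 108551109 (+ strand) and had 49.32, 45.35, 53.76 and 55.61 TPM in libraries 1 to 4. Itpr2 lies on chromosome 6 between 146108299 and 146502223 (- strand) and had 60.85, 60.71, 70.47 and 75.85 TPM. Itpr3 lies on chromosome 17 between 27057304 and 27122223 (+ strand) and had 36.84, 34.35, 36.3 and 35.28 TPM. Itpr2 was the highest and Itpr3 the lowest in every library on this scale, and the range of Itpr3 overlapped neither of the others. The means were 51.0 ± 4.60, 67.0 ± 7.48 and 35.7 ± 1.10 TPM (SD, n = 4).

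The order of the IP3 receptors turned over when only transcripts with a whole open reading frame were counted. These transcripts took 37.0% ± 4.79 of Itpr1 and 42.9% ± 1.29 of Itpr2, which have 13 and 11 annotated transcripts, but 98.0% ± 4.03 of Itpr3, which has 2. Itpr3 then led with 33.87, 34.35, 36.3 and 35.28 TPM, followed by Itpr2 with 25.23, 26.46, 31.28 and 32.12 TPM and Itpr1 with 17.4, 19.59, 17.1 and 20.97 TPM. The log2 ratio of Itpr1 to Itpr3 was 0.51 ± 0.122 over all transcripts and -0.90 ± 0.151 over those with a whole open reading frame. That of Itpr2 to Itpr3 was 0.90 ± 0.165 and -0.29 ± 0.136, and that of Itpr1 to Itpr2 kept its direction, at -0.39 ± 0.063 and -0.61 ± 0.187 (SD, n = 4). Each of these 6 mean ratios had its sign in 4 of 4 libraries and a p of 0.125 in the exact permutation test. The open reading frames in the second quantification gave the same signs, at -1.0 ± 0.130 for Itpr1 to Itpr3 and -0.24 ± 0.138 for Itpr2 to Itpr3. Counts per kilobase of the longest transcript with a whole open reading frame, untranslated bases included, gave -0.51 ± 0.127 and -0.21 ± 0.126. For Itpr2 that length was 11679 bases, of Itpr2-202, against 8331 of Itpr2-201 and 8990 of Itpr3-201. Itpr2 had more counts than Itpr3 in every library, so the length of Itpr2-201 would turn the sign of Itpr2 to Itpr3.

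**Figure D1:**
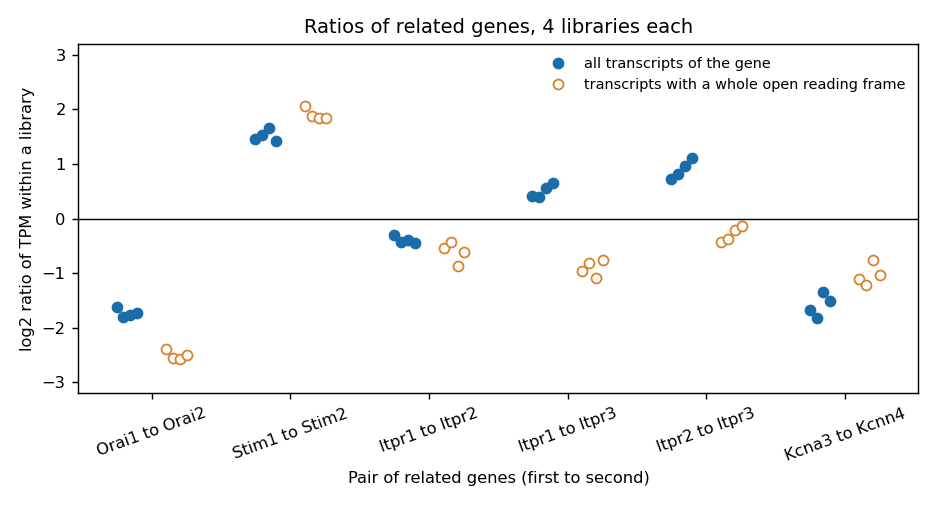
Log2 ratio of TPM within each library for 6 pairs of related genes, with filled points for all transcripts of each gene and open points for transcripts with a whole open reading frame, 4 points each. The Itpr1 to Itpr3 and Itpr2 to Itpr3 points lie above 0 for all transcripts (means 0.51 and 0.90) and below 0 for open reading frames (-0.90 and -0.29), whereas the other 4 pairs keep their side.

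The remaining TPM of Itpr1 and Itpr2 belonged to several classes of shorter transcripts. In Itpr2 the transcript Itpr2-206, annotated for nonsense-mediated decay, took 19.1% ± 1.82 of TPM and retained-intron transcripts 23.6% ± 1.66. In Itpr1, retained-intron transcripts took 32.4% ± 3.72, led by Itpr1-209 with 15.8% ± 2.00, and coding transcripts without a whole open reading frame 20.4% ± 2.64, among them Itpr1-206 with 9.26% ± 1.11 (SD, n = 4). As shares of counts, which do not divide by length, the transcripts with a whole open reading frame took 75.4% ± 2.39 of Itpr1 and 79.2% ± 0.531 of Itpr2. Most reads of both genes were therefore assigned to transcripts with a whole open reading frame, although these made up less than the rest of the TPM. The annotated gene Gm44086 lies within Itpr2 on the same strand and had 57 to 104 counts, against 5121 to 6283 for Itpr2.

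Splice variants of the IP3 receptors are shown next because 2 pairs of transcripts differ in coding sequence by 1 short stretch each, of 99 and 3 bases. Both pairs differ in untranslated sequence too. The total lengths are 8331 and 11679 bases for Itpr2-201 and Itpr2-202, and 9870 and 9761 for Itpr1-201 and Itpr1-205. In Itpr2 a cassette exon of 99 bases (33 codons), exon 6 of 57 at chr6:146418418-146418516 (mm10, - strand), is present in Itpr2-201 and absent from Itpr2-202. In Itpr1 the transcripts Itpr1-201 and Itpr1-205 differ in coding sequence by 3 bases (1 codon) at the start of exon 42 of 62, at chr6:108432646-108432648 (+ strand). Capitals mark the bases that 1 transcript of the pair has and the other lacks.
Itpr2-201 cassette exon: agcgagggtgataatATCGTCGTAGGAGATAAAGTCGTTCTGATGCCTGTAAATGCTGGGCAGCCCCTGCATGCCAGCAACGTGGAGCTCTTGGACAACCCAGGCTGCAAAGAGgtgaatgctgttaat
Itpr1-201 triplet: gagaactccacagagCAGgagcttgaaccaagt

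Itpr2 transcripts with and without the cassette exon both took a share, while the Itpr1 pair could not be resolved. Itpr2-201, with the exon, took 23.1%, 24.4%, 26.0% and 24.1% of Itpr2 TPM in libraries 1 to 4, and Itpr2-202, without it, 18.4%, 19.1%, 18.4% and 18.2%. By TPM, Itpr2-201 was higher in every library, also in the second quantification, with means of 28.6% ± 0.818 and 15.3% ± 0.129 (SD, n = 4). As shares of counts the order was the other way, 38.3% ± 1.25 for Itpr2-201 and 40.9% ± 0.762 for Itpr2-202. The 2 transcripts also differ in untranslated sequence, so their shares do not measure the exon alone. For Itpr1 the first quantification gave 34.5% ± 5.90 to Itpr1-205, without the triplet, and 2.45% ± 2.27 to Itpr1-201, with it. The second gave 0.00103% ± 0.00113 to Itpr1-205 and 30.3% ± 2.00 to Itpr1-201. The 2 quantifications thus favoured opposite members of the pair, and no share of the triplet can be read from these values.

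The potassium channel Kcnn4 exceeded Kcna3. Kcna3 encodes Kv1.3, and Kcnn4 encodes KCa3.1, which opens when calcium binds its calmodulin subunits. Kcna3 lies on chromosome 3 between 107036169 and 107038070 (+ strand), has a single exon and a single annotated transcript, and had 21.81, 20.59, 22.87 and 25.08 TPM in libraries 1 to 4. Kcnn4 lies on chromosome 7 between 24370263 and 24386690 (+ strand) and had 69.7, 72.4, 57.98 and 71.51 TPM. Library 3 was the lowest for Kcnn4, and the ranges of the 2 genes did not overlap. The means were 22.6 ± 1.90 and 67.9 ± 6.71 TPM, and the log2 ratio of Kcna3 to Kcnn4 was -1.59 ± 0.204 (SD, n = 4) or 3.00-fold less Kcna3, with p = 0.125 in the exact permutation test. Transcripts with a whole open reading frame took 68.0% ± 2.42 of Kcnn4, and over these the ratio was -1.03 ± 0.192, or 2.04-fold. The leading Kcnn4 transcript was Kcnn4-202 with 62.8% ± 3.87, followed by the retained-intron transcripts Kcnn4-205 with 16.7% ± 1.49 and Kcnn4-204 with 15.3% ± 2.00. Kcna3 overlaps the antisense gene Gm27008, which had 3 to 5 counts per library, against 645 to 687 for Kcna3.

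Trpm7 lies on chromosome 2 between 126791565 and 126876230 (- strand) and had 32.22, 32.71, 34.66 and 37.28 TPM, a mean of 34.2 ± 2.30 (SD, n = 4). Its 7 retained-intron transcripts took 50.1% ± 3.56 of TPM and its transcripts with a whole open reading frame 49.3% ± 4.11. As shares of counts these were 17.2% ± 2.89 and 82.7% ± 2.97. The transcripts with a whole open reading frame had 17.57, 15.5, 17.41 and 16.76 TPM, with no library far from the rest. Trpm7-202 led with 42.2% ± 6.48, and the retained-intron transcripts Trpm7-206 and Trpm7-205 had 17.1% ± 4.06 and 8.38% ± 3.31. Trpm7-201, named after its values were seen, lacks a triplet of coding bases that Trpm7-202 has at the start of exon 29 of 39, at chr2:126805085-126805087 (mm10, - strand). The triplet has the same letters as the Itpr1 triplet and is shown for that reason, in capitals.
Trpm7-202 triplet: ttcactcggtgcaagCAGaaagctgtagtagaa

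Both quantifications gave Trpm7-202, which has the triplet, a larger share than Trpm7-201. These transcripts also differ in annotated first base (126876230 and 126876117) and in length (7107 and 6985 bases). Their shares therefore do not measure the triplet alone. Trpm7-201 took 3.07%, 10.3%, 11.9% and 3.09% of Trpm7 TPM in libraries 1 to 4, a mean of 7.07% ± 4.66 (SD, n = 4), and 5.17% ± 3.36 in the second quantification, where Trpm7-202 had 40.4% ± 6.80. Libraries 2 and 3 had more of Trpm7-201 than libraries 1 and 4.

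**Figure D2:**
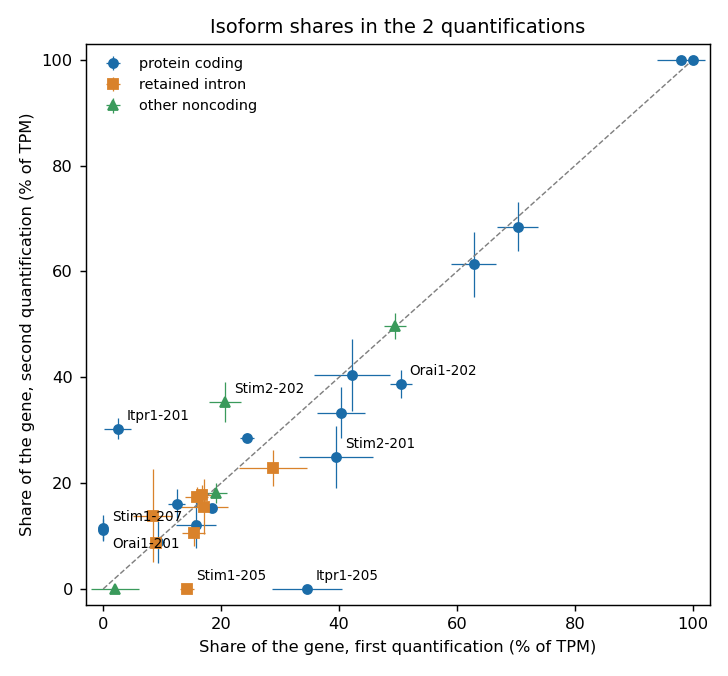
Mean share of a transcript in its gene, in percent of TPM, in the first (x axis) and second (y axis) deposited quantification for the 29 named transcripts; bars are the SD of 4 libraries and the dashed line marks equal shares. Most points lie near the line, and the labelled ones differ by over 10 percentage points, with Itpr1-205 (34.5% against 0.00103%) and Itpr1-201 (2.45% against 30.3%) the farthest.

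By mean TPM over all transcripts the genes ranked as Orai2, Kcnn4, Itpr2, Stim1, Itpr1, Itpr3, Trpm7, Orai1, Kcna3 and Stim2. Of the 9 neighbouring pairs in this order, 5 had overlapping ranges over the 4 libraries. The 4 that did not were Orai2 and Kcnn4, Itpr1 and Itpr3, Trpm7 and Orai1, and Orai1 and Kcna3. Over transcripts with a whole open reading frame the order was Orai2, Kcnn4, Itpr3, Stim1, Itpr2, Kcna3, Itpr1, Trpm7, Orai1 and Stim2, and 3 of 9 neighbouring pairs overlapped. In the first quantification Orai2 led and Stim2 came last on both scales. The second quantification gave higher TPM to each gene, from 1.16 times the first for Stim1 and Kcnn4 to 1.54 times for Stim2. Its order over all transcripts was Orai2, Itpr2, Kcnn4, Itpr1, Stim1, Trpm7, Itpr3, Orai1, Stim2 and Kcna3, so Kcna3, at 27.8 ± 2.63 TPM, came last there in place of Stim2, at 31.7 ± 5.13. The median over the 10 genes was 43.4 TPM, beside 12.9 TPM over all protein-coding nuclear genes of at least 1 TPM.

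**Figure D3:**
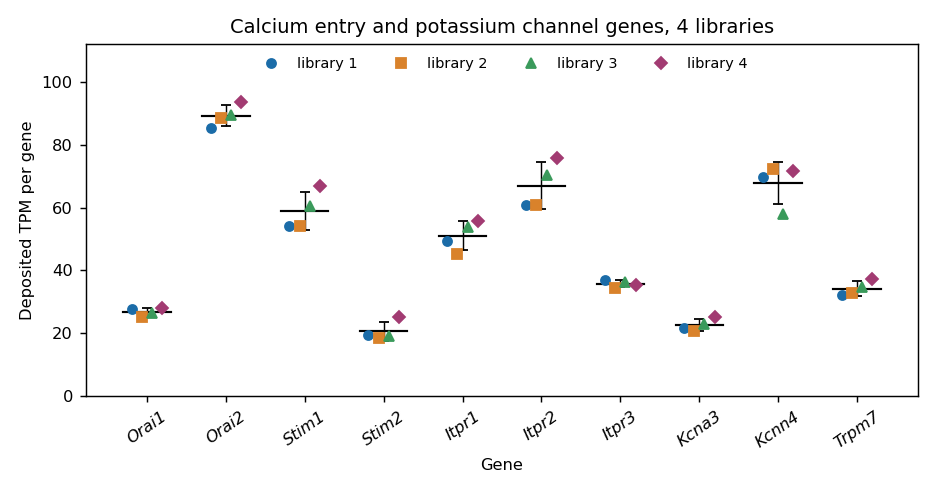
Deposited TPM of each gene in libraries 1 to 4 (points), with the mean (bar) and SD (error bar, n = 4). Orai2 lies at 85.31 to 93.62 TPM, above every other gene, Stim2 stands out in library 4 (25.05 TPM) and Kcnn4 is low in library 3 (57.98 TPM).

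**Figure D4:**
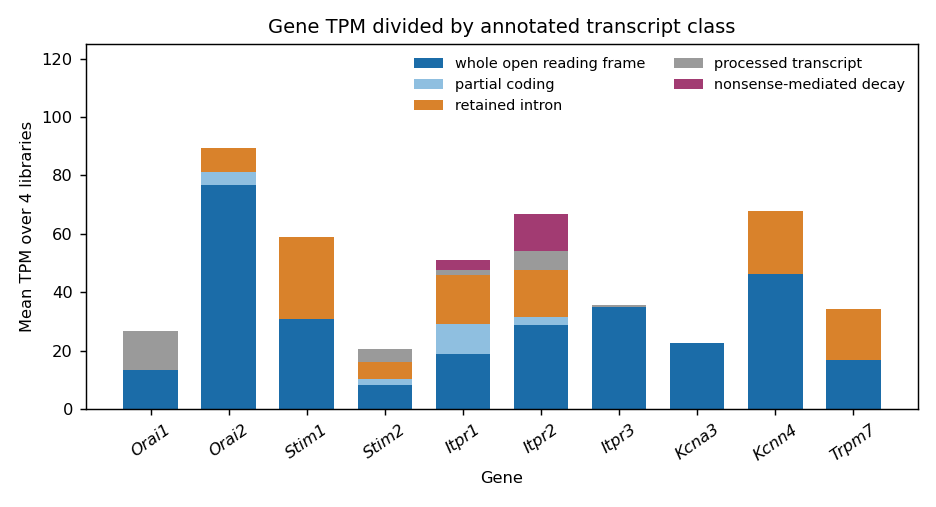
Mean TPM of each gene over 4 libraries, divided into annotated transcript classes. Itpr3 and Kcna3 are almost wholly whole open reading frames (98.0% and 100%), whereas in Itpr1, Itpr2, Stim2 and Trpm7 this class takes 37.0% to 49.3%.

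No gene of the 10 was called as varying between libraries more than the trend for its abundance. All 10 were tested by edgeR's goodness-of-fit test with Benjamini-Hochberg adjustment at 0.05, and 0 were called, beside 1.4% of 13118 genes tested, and 1 of the 10 had an unadjusted p below 0.05, beside 4.6% of all. The count of 0 was the same with the size factors of DESeq2 and in the second quantification. With the counts scaled by TMM, the median coefficient of variation was 4.94% over the 10 genes and 8.46% over all tested genes, which were not matched for abundance. The median goodness-of-fit statistic, which allows for abundance, was 1.25 over the 10 genes and 1.47 over all tested genes. Orai2 had 323, 325, 317 and 317 scaled CPM (counts relative to the library total) in libraries 1 to 4, a highest value 1.03 times the lowest.

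Kcnn4 was the gene with the unadjusted p below 0.05. It had 143.8, 146.5, 110.0 and 136.6 scaled CPM, low in library 3, with 1807 counts there against 2029 to 2497 in the others. The unadjusted p was 0.00792 and the adjusted p 0.335 in edgeR's goodness-of-fit test, and the second quantification gave an adjusted p of 0.230. Over the other alternatives, which leave out a library or change the scaling, the filter or the dispersion, the adjusted p ranged from 0.0853 without library 4 to 0.9999 without library 3. The Kcnn4 transcripts with a whole open reading frame had 47.07, 47.69, 38.83 and 51.09 TPM, so library 3 was lowest there too. In Stim2 the scaled CPM was 48.0, 51.5, 51.8 and 52.2, and library 4 did not stand apart as it did by TPM.

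**Figure D5:**
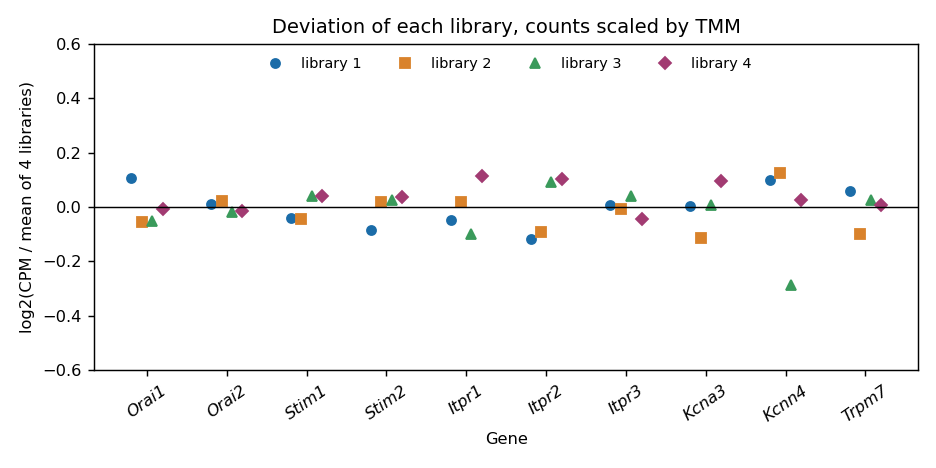
Log2 of the TMM-scaled CPM of each gene in each library over the mean of the 4 libraries. Kcnn4 in library 3 lies at -0.29, and all other points lie between -0.12 and 0.13.

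By TPM, 8 of the 10 genes were highest in library 4, beside 39.5% of all tested genes. By TMM-scaled CPM, 5 of the 10 were, beside 28.5% of all. Retained-intron transcripts were highest in library 4 for 6 of the 7 genes that have them, beside 38.2% of 5098 genes, and transcripts with a whole open reading frame for 5 of 10, beside 36.5% of 9541 genes for protein-coding transcripts. Library 4 also had the most B cell and erythroid marker RNA, and its part in these values was not tested. Over all protein-coding genes, with or without such transcripts, retained-intron transcripts took 18.4%, 18.3%, 18.8% and 19.0% of TPM in libraries 1 to 4. Over the 5098 genes whose retained-intron transcripts had a mean of at least 1 TPM, the median share was 29.8%, 29.5%, 30.5% and 30.8%. The mean shares of the 7 genes ran from 8.9% to 50.1%.

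Partners of these channels were described from 10 groups of 126 genes, of which 62 reached a mean of 1 TPM, 71 were tested and 3 were called, beside 1.4% of all genes tested. In the 7 groups with no call, 44 genes were tested by edgeR's goodness-of-fit test and 2 had an unadjusted p below 0.05, beside 4.6% of all genes tested. These groups were picked by the outcome of this same test, so a low count was partly built in. Such a p was found for 1 of 12 genes of IP3 production and receptor partners. It was found for 1 of 8 other cation channels and 2 of 7 voltage-gated calcium channel subunits. Among 10 calcium entry partners, 7 reached 1 TPM. Saraf, which turns off store-operated entry, had 147 ± 6.36 TPM, Esyt1, a tether between the endoplasmic reticulum and the plasma membrane, 98.1 ± 1.80, and Cracr2a, which stabilises the complex of ORAI1 and STIM1, 21.3 ± 1.75 (SD, n = 4). Orai3, the other gene of the ORAI family, had 5.85, 4.56, 4.55 and 5.73 TPM, below Orai1 and Orai2 in every library. Among 13 genes of IP3 production and receptor partners, 12 reached 1 TPM, with Plcg1, the phospholipase downstream of the T cell receptor, at 113 ± 6.92, Itpkb, which phosphorylates IP3, at 98.3 ± 12.4, and Tespa1, which binds IP3 receptors, at 47.5 ± 2.36 TPM. In this group Plcg2, the phospholipase of B cells, was called, with 0.74, 1.12, 1.04 and 2.83 TPM (adjusted p = 0.00232 in edgeR's goodness-of-fit test), highest in library 4 together with the B cell markers, whose part was not tested.

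The pumps and mitochondrial genes were present and the ryanodine receptors nearly absent. Of 9 calcium pumps 5 reached 1 TPM, with Atp2a3 at 83.3 ± 4.59, Atp2a2 at 27.7 ± 2.31 (both refill the store) and Atp2b1, which exports calcium across the plasma membrane, at 50.2 ± 3.71 TPM (SD, n = 4). All 9 genes of mitochondrial calcium uptake and release reached 1 TPM, led by Smdt1 at 29.6 ± 4.25, Letm1 at 26.5 ± 2.98 and Micu2 at 16.6 ± 1.31 TPM. None of the 3 ryanodine receptors, the other release channels of the store, did, with means of 0.0125 for Ryr1, 0.1 for Ryr2 and 0.113 TPM for Ryr3.

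The other cation channels and voltage-gated calcium channel subunits listed had lower mean TPM than each of the 10 genes over all transcripts. In library 2, however, P2rx4 had 20.03 TPM against 18.64 for Stim2. Of 19 other cation channels 6 reached 1 TPM, with P2rx4 at 16.9 ± 2.49, Trpv2 at 16.2 ± 0.666, Piezo1 at 15.1 ± 2.19 and P2rx7, a channel opened by extracellular ATP, at 15.1 ± 2.49 TPM (SD, n = 4). P2rx7 was called (adjusted p = 0.00910 in edgeR's goodness-of-fit test), with 42.0, 53.7, 32.3 and 50.2 scaled CPM, low in libraries 1 and 3. Of 18 subunits of voltage-gated calcium channels 3 reached 1 TPM, Cacnb1 at 9.09 ± 1.31, Cacna1a at 4.01 ± 1.28 and Cacna2d4 at 3.96 ± 0.649 TPM. Cacna1i, a low-voltage-activated pore subunit, was called at 0.27, 0.1, 0.08 and 0.75 TPM from 11 to 59 counts (adjusted p = 0.00463 in the same edgeR goodness-of-fit test), highest in library 4 together with the B cell and erythroid markers, whose part was not tested.

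Kcna3 and Kcnn4 stood well above the other potassium channels listed. Of 23 such genes 3 reached 1 TPM, Kcna2 at 2.37 ± 0.186, Kcnh2 at 1.69 ± 0.180 and Kcnq5 at 1.09 ± 0.293 TPM (SD, n = 4), and the lowest library of Kcna3 had 20.59 TPM. Of 13 potassium channel partners 10 reached 1 TPM, among them Calm2, which encodes calmodulin, at 98.1 ± 2.28 TPM and the kinase Nme2, which activates KCa3.1, at 80.3 ± 4.87 TPM. Of 9 magnesium transporters 7 reached 1 TPM, led by Cnnm3 at 15.2 ± 2.29, Magt1 at 12.9 ± 0.881 and Slc41a1 at 10.02 ± 0.650 TPM, all below Trpm7.

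Promoters of 9 of the 10 genes were matched by symbol in a table of RefSeq promoters (GRCm38.p6), 250 bases before to 50 after the start; Itpr1 was not matched. The 9 windows held 6 to 39 CpG sites, with a median of 35 beside 7 over 32851 promoters. Kcnn4 had the fewest, 6, and Orai2 24, whereas Stim2 had 39. Searching both strands, the E-box CACGTG was found in 4 of 9 windows (Orai2, Trpm7, Kcnn4 and Itpr3) beside 7.15% of all, the GC box GGGCGG in 8 of 9 beside 35.7%, CCGGAA in 1 beside 14.9%, ATTGG in 3 beside 37.4% and TATAAA in 0 beside 13.6%. A match is a description of letters, not of binding. The 32851 promoters were not limited to expressed genes, whereas all 9 genes were expressed. The CpG counts and matches therefore cannot be read as particular to these genes. Orai2 and Kcnn4 had the highest mean TPM of the 10 genes in the first quantification, and their windows are 2 of the 4 with an E-box. Their 250 bases before the RefSeq start are printed, with E-boxes in capitals. They lie at chr5:136170657-136170906 (- strand) and chr7:24370013-24370262 (+ strand), and the base after the Kcnn4 window, 24370263, is the annotated first base of its leading transcript Kcnn4-202. The leading Orai2 transcript, Orai2-201, has its annotated first base at 136170713, inside the printed window, so the last 57 printed bases, with 1 of the 2 E-boxes, lie within that transcript.
Orai2 promoter: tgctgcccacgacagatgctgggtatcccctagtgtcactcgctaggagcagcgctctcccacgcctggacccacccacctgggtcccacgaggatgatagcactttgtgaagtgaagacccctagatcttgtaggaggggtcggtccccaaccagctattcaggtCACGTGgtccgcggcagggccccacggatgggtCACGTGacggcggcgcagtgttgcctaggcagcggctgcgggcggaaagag
Kcnn4 promoter: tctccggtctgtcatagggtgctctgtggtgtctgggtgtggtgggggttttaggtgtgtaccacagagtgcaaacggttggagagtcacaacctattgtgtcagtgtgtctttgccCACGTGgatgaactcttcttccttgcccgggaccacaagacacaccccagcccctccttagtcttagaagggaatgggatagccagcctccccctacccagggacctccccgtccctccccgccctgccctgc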

How the data were processed

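The assembly mm10 and the annotation GENCODE M21 are named in descriptions the authors deposited with their files. For the aligner and quantifiers, names were not given in the sources used here. In its columns, the authors' first quantification has the layout of RSEM and the second that of kallisto. The deposited expected counts (estimated counts) are not normalized. The deposited TPM values are per effective transcript length, with an equal total in every library. The deposited percent values give a transcript's share of its gene. Reads were assigned to the C57BL/6 reference, so reads with CAST/EiJ variants could be lost. The kit keeps strand per the labels' protocols, and its use in counting is not stated. Identifiers that name no gene (26248, at most 8.75e-05% of counts) and 97 spike-ins stayed out of tests.

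Expected counts were rounded and tested with edgeR 4.0.16 in R 4.3.3 (TMM, filterByExpr, intercept only, trended dispersion, goodness-of-fit test, Benjamini-Hochberg over 13118 genes at 0.05; common biological coefficient of variation 0.0938), a step tested on simulated data. DESeq2 1.42.0 gave size factors as an alternative. The 6 log2 ratios of TPM used an exact sign-flip permutation test over libraries, and all 6 adjusted p-values were 0.125. A whole open reading frame means an annotated coding sequence complete at both ends. Sequences came from the M21 transcripts. Python 3.11.15 and scipy 1.17.1 were used.

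The genes and lists were chosen with earlier results of these data known. Named were all 10 genes, the top 3 by TPM and called genes of each group with Orai3, and per gene the top 3 transcripts plus those whose share differed by over 10 percentage points between quantifications. A gene that this rule would name is not reported here.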

Additional observations from a re-analysis of the deposited data

Results flagged for a closer look

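Of 45 levels, ratios and shares checked, 3 had a library far from the other 3 by Dixon's criterion for 4 values, and chance alone marks about 1 in 20 groups. The TPM of Stim2 was 25.05 in library 4 and 18.64 to 19.55 in the others, while for its transcripts with a whole open reading frame library 4, at 8.64 TPM, lay within the 7.32 to 8.84 of the others. The share of Itpr3-201, the Itpr3 transcript with a whole open reading frame, was 91.94% in library 1 and 100% in the others. The share of Itpr3-202, a processed transcript of 350 bases, was 8.06% in library 1 and 0% in the others, and it was 0% in every library of the second quantification. These 2 transcripts share 1 total, so their marks are the same event, and the 8.06% rests on 12.2 of 4953 counts of the gene in library 1.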

How the results depend on the processing

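The number of genes that varied between libraries was 183, against 279 with no filter on low counts, 353 with a common dispersion and 116 to 146 when 1 library was left out (118 without library 1, 116 without library 4). The count among the 10 genes was 0 under each of these, with library totals, with DESeq2 size factors and in the second quantification. Alternatives chosen after seeing the data reversed 2 of 6 log2 ratios. Itpr1 to Itpr3 was -0.90 with whole open reading frames, -1.0 with these in the second quantification and -0.51 with counts per kilobase, and Itpr2 to Itpr3 was -0.29, -0.24 and -0.21. The value of -0.21 rests on the length of Itpr2-202, and the shorter length of Itpr2-201 would turn its sign. The other 4 kept their direction under all alternatives run. With 3 libraries the exact permutation p cannot go below 0.25. TPM rescaled over protein-coding genes was 2.86 to 2.99 times the deposited TPM. Of 29 named transcript shares, 16 moved by more than 1 SD in the second quantification and 22 as shares of counts. No paired analysis was possible because there is 1 group, so replicate numbers pair no samples between groups.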
